A study of Arabidopsis thaliana with 2 samples.

Results

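The histone genes of Arabidopsis thaliana were examined in rosette leaves of plants that over-expressed NST1, set against wild type. The genes were taken by locus, as 43 genes for the histones H1, H2A, H2B, H3 and H4. The rule used no measured value, but histones were picked as a group with earlier results of these data known. Of the 43, 17 had a probe annotated to exactly 1 gene, and each of these 17 had 1 such probe. They were 17 of the 9335 probes with 1 gene, which stood for 9254 gene identifiers, on arrays of 22575 probes.

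There was 1 group of 2 over-expressor plants, the independent transformants no. 36 and no. 44, here plant 36 and plant 44, each compared with wild type on an array of its own. Both were T1 plants, the first generation to carry the transgene, 2 weeks old and kept in 16 h of light and 8 h of dark. They carried NST1, a NAC transcription factor that turns on secondary wall thickening, under the 35S promoter, which is active in most cells of the plant. Over-expressor RNA was labelled with Cy5 and wild-type RNA with Cy3 on both arrays, so a dye effect and the genotype cannot be told apart. The labels do not say how many wild-type plants were used, so wild type counted as 1 control sample whose own spread was not measured. Among the named probes there was none for NST1, so the direction of the ratio could not be checked on the transgene.

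Each value is a deposited log ratio for 1 probe on 1 array. It was read as log10 of over-expressor to wild type, a direction taken as likely from the dyes and titles. The base of the logarithm, the centring and the direction are not stated by the labels, and each fold assumes a base of 10. If the ratio runs the other way, every sign, call and rank here turns, and "lower" and "higher" change places. The array medians over all probes were -0.002 in plant 36 and -0.004 in plant 44. Where a pair of values is given for a gene, it is for plant 36 and then plant 44. A ratio holds no level, so neither the abundance of a histone transcript nor the presence of leaf markers could be checked. Each probe was tested with limma against a ratio of 0, with the Benjamini-Hochberg adjustment over all 22575 probes and a threshold of 0.05. A gene is said to have risen or fallen where its probe passed that threshold. With 2 arrays, each p-value rests on the spread between the 2 plants, drawn toward a prior spread estimated over all probes. The prior had 1.37 degrees of freedom, against 1 from the 2 plants. In whole leaves, fewer cells that express a gene and less of its RNA per cell cannot be told apart.

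Histones are the proteins around which DNA is wound. Pairs of H2A, H2B, H3 and H4 form the nucleosome core, and H1, the linker histone, binds where DNA enters and leaves it. Replication-linked histones, such as H4, H2B, canonical H2A and H3.1, are made mostly while DNA is copied and packed into new chromatin, so their transcripts are richest in dividing or endoreduplicating cells. Replacement variants such as H3.3 and H2A.Z are made throughout the cell cycle and are exchanged into existing chromatin, H3.3 largely over transcribed genes. A growing leaf holds dividing cells and cells that have stopped dividing.

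Most replication-linked core histones were lower in the over-expressors, while the genes of H3.3 and H1 lay around 0 or above it. Of the 12 measured replication-linked genes, 8 fell, 0 rose and 4 did not pass, and their median log ratio was -0.20, or 1.58-fold lower on a base of 10. None of these calls held in the ordinary test without a prior or at an adjusted p of 0.01 in limma, where 0 of the 12 fell. Neither setting sets histones apart, since 0 of all 22575 probes passed in the ordinary test. In limma, the lowest adjusted p of any probe was 0.0168. At an unadjusted p under 0.05 stood 5 of the 12 in the ordinary test and 11 in limma. Over all 22575 probes, 4329 and 9718 did so. Among all probes with 1 gene, 12.4% fell and 9.99% rose, and their median was 0.001. Of the 12 genes, 11 lay below 0 on both arrays, as did 41.0% of the probes with 1 gene. Of the 5 genes for H3.3 and H1, 1 rose, 0 fell and 4 did not pass, and 3 lay above 0 on both arrays, as did 42.2% of the probes with 1 gene. That 0 of 5 fell is near the 12.4% over probes with 1 gene and says little by itself. A probe annotated to all 3 H3.3 genes, not counted here, lay below 0 on both arrays, at -0.076 and -0.051. The difference between these classes was not tested, because the members had been chosen with earlier results of these data known.

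**Figure D1:**
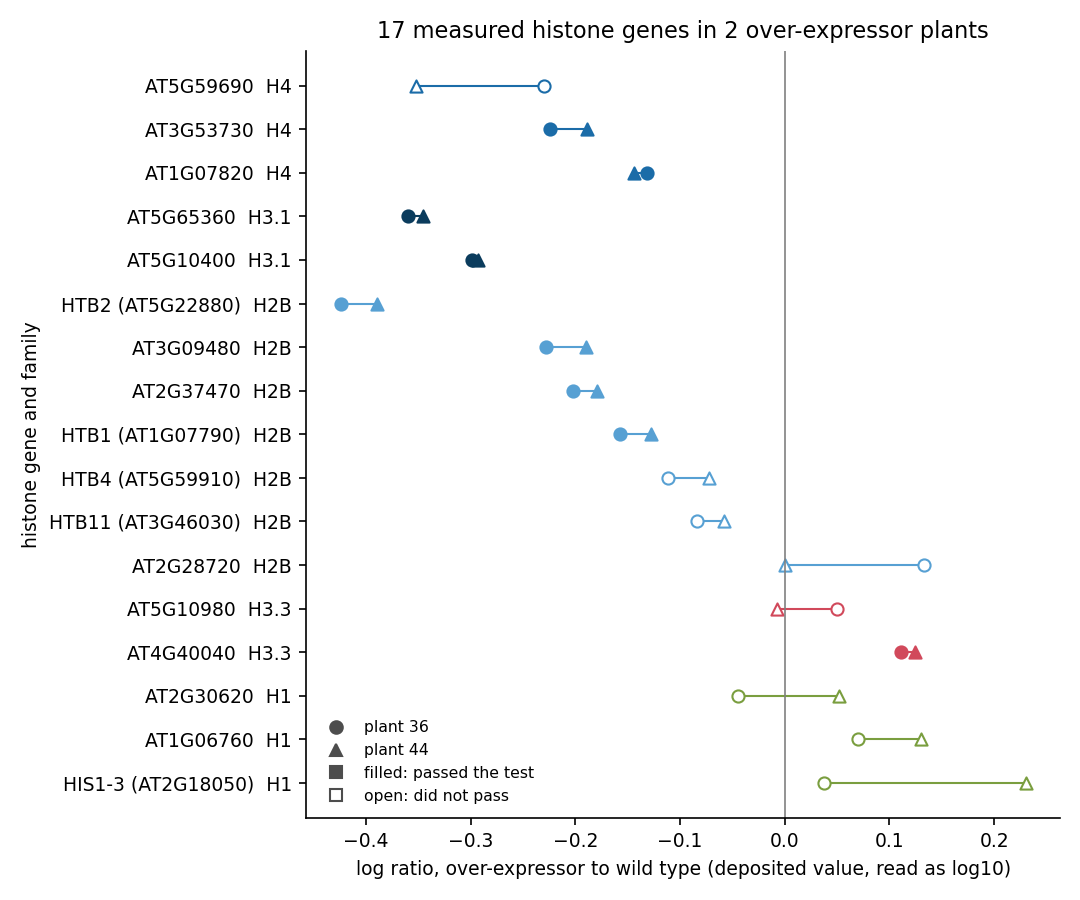
Log ratio of over-expressor to wild type (horizontal axis, deposited value read as log10) of the 17 measured histone genes, listed by family, with a circle for plant 36 and a triangle for plant 44. Filled symbols passed the test of limma at an adjusted p of 0.05. The H4 and H3.1 genes and 6 of the 7 H2B genes lie left of 0 in both plants, while H3.3 and H1 lie around or right of 0.

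Coverage of the families was uneven. All 3 listed H1 genes were measured, 7 of 10 H2B genes, 3 of 8 H4 genes, 2 of 5 H3.1 genes and 2 of 3 H3.3 genes. None of the 13 listed H2A genes had a probe with 1 gene, which leaves out canonical H2A, the DNA damage variant H2A.X, the heterochromatin variant H2A.W and H2A.Z. The variant H2B gene AT1G08170 was not measured either. In all, 12 of 27 replication-linked genes and 2 of 13 variant genes were measured. The comparison of replication-linked histones with variants therefore rests on H3.3 alone among the variants of the member list. Outside the members, the centromeric H3 gene HTR12, described below, fell, with -0.366 in plant 36 and -0.307 in plant 44. Another H3 gene, AT1G13370, lay at -0.023 and -0.042 and did not pass. Low values were thus not confined to the replication-linked genes.

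Histone H3.1, the form that the chaperone CAF-1 places on newly copied DNA, was lower in both plants for each gene measured. AT5G65360 had log ratios of -0.360 in plant 36 and -0.345 in plant 44. It averaged -0.35 ± 0.01 (SD, n = 2 plants), or 2.25-fold lower on a base of 10, and fell (limma adjusted p = 0.0231). AT5G10400 had -0.299 and -0.293. Its mean of -0.30, with an SD of 0.0042, was 1.98-fold lower, and it fell too (limma adjusted p = 0.0254). The values of the 2 plants nearly coincided for both genes, with differences of 0.015 and 0.006, whereas the median absolute difference between plants was 0.036 over probes with 1 gene.

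Another 4 probes were annotated to several histone genes at once and were not among the 17. Of these, 3 stood for all 5 H3.1 genes together. The first gave -0.275 in plant 36 and -0.26 in plant 44 and fell (limma adjusted p = 0.0273). The next gave -0.234 and -0.243 and fell (limma adjusted p = 0.0284). The last gave -0.277 and -0.127, a wider spread, and did not pass (limma adjusted p = 0.106). All 5 H3.1 probes, with 1 gene or several, thus lay below 0 on both arrays. They target the same small family and may read the same transcripts, so they are not independent measurements.

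Histone H3.3, which differs from H3.1 by a few residues and is placed by the chaperone HIRA independently of replication, did not share the low values. AT4G40040 lay at 0.111 in plant 36 and 0.124 in plant 44. It averaged 0.12 ± 0.01, or 1.31-fold higher on a base of 10, and rose (limma adjusted p = 0.0454). AT5G10980 lay at 0.050 and -0.007, on both sides of 0, and did not pass (limma adjusted p = 0.528). The probe annotated to all 3 H3.3 genes had the opposite sign, at -0.076 and -0.051, and did not pass (limma adjusted p = 0.105). Of the 3 H3.3 probes, 1 passed.

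**Figure D2:**
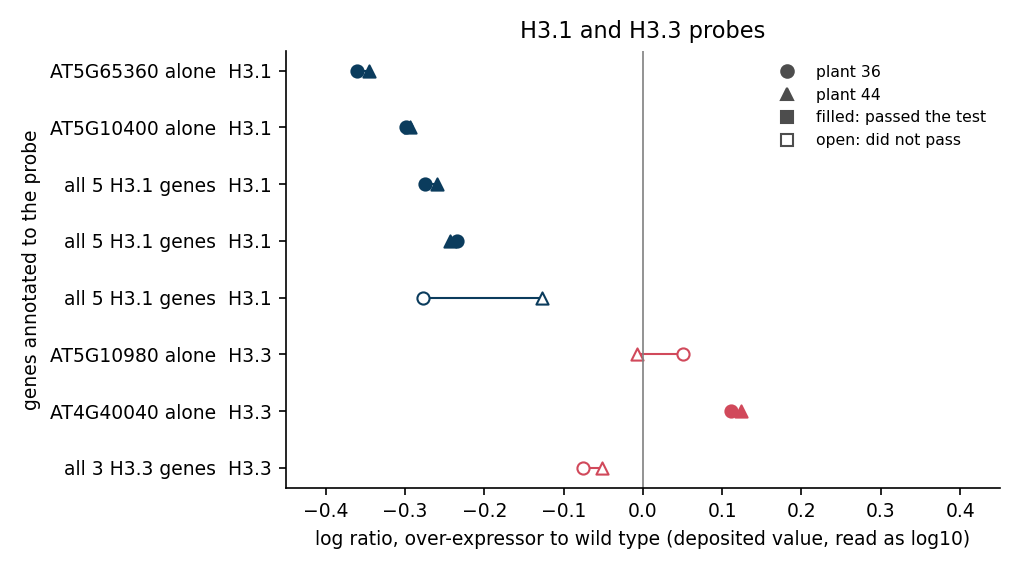
Log ratio of over-expressor to wild type (horizontal axis, read as log10) of the H3.1 and H3.3 probes, including the 4 probes annotated to all genes of a family, with a circle for plant 36 and a triangle for plant 44. Filled symbols passed the test of limma. The 5 H3.1 probes lie between -0.360 and -0.127, and the 3 H3.3 probes between -0.076 and 0.124.

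Set beside each other, the H3.1 genes had a median of -0.33 in plant 36 and -0.32 in plant 44, against 0.081 and 0.059 for the H3.3 genes. H3.1 minus H3.3 was -0.41 in plant 36 and -0.38 in plant 44. With the probes of several genes counted with their family, the mean difference was smaller, at -0.29 against -0.39, and the H3.3 median was 0.022. Over all 12 replication-linked genes the median was -0.21 in plant 36 and -0.18 in plant 44. Replication-linked minus H3.3 was -0.29 in plant 36 and -0.24 in plant 44. The SD over the 2 plants was 0.023 for H3.1 minus H3.3 and 0.036 for replication-linked minus H3.3. It leaves out the spread of wild type, which both arrays used as control, and the spread among genes, with H3.3 means of 0.022 and 0.12, so these differences are a description.

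**Figure D3:**
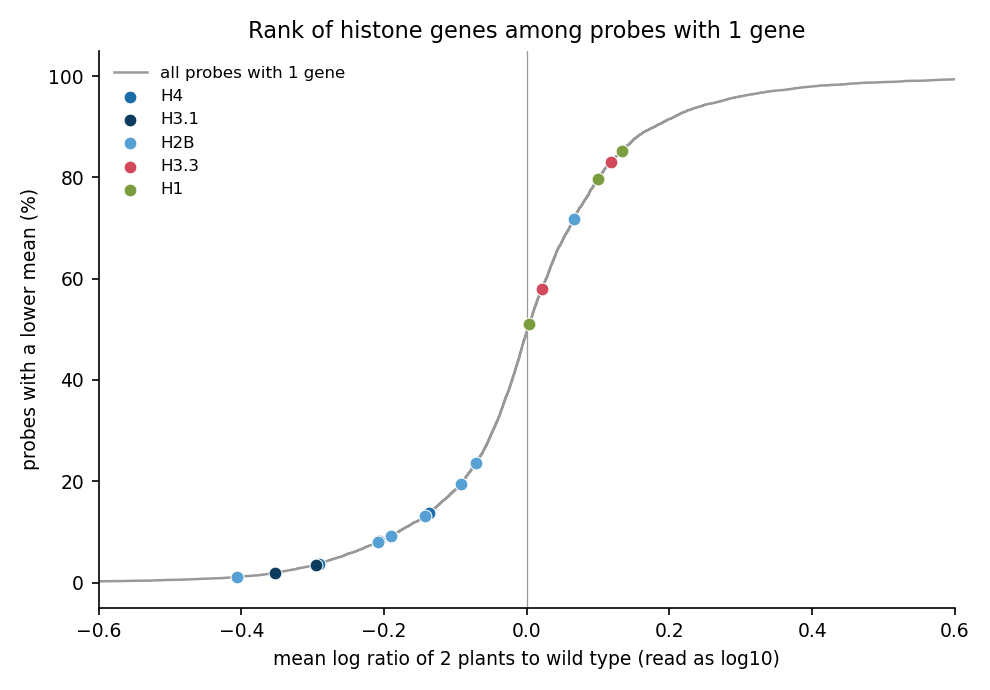
Percentage of the 9335 probes with 1 gene that had a lower mean log ratio (vertical axis) against the mean log ratio of the 2 plants (horizontal axis, read as log10), with the grey curve for all probes with 1 gene and points for the histone genes. The H3.1 genes, HTB2 and the H4 gene AT5G59690 lie in the lowest 4% of the curve. The H3.3 and H1 genes and the H2B gene AT2G28720 lie above its middle.

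Histone H4, whose genes all encode nearly the same protein and which pairs with H3, was lower for all 3 measured genes. AT5G59690 had -0.230 in plant 36 and -0.352 in plant 44. Its mean of -0.29 ± 0.09, or 1.95-fold lower, was the lowest of the 3, yet with the widest spread between plants it did not pass (limma adjusted p = 0.0542). It passed in 5 of 8 other settings, with limma adjusted p between 0.0262 and 0.0421, and in the remaining 3 it did not. The settings in which it passed also called a larger share of all fitted probes than the main fit. AT3G53730 had -0.224 and -0.189, a mean of -0.21 ± 0.02, and fell (limma adjusted p = 0.0345). AT1G07820 had -0.131 and -0.144, a mean of -0.14 with an SD of 0.0092, and fell (limma adjusted p = 0.0392). The ranges of the 3 genes over the plants did not overlap, although AT5G59690 and AT3G53730 were close in plant 36, at -0.230 and -0.224, and apart in plant 44.

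The H2B genes, whose product pairs with H2A in the core, spread most. HTB2 (AT5G22880) had the lowest mean of all measured histones, with -0.424 in plant 36 and -0.389 in plant 44. It averaged -0.41 ± 0.02, or 2.55-fold lower on a base of 10, and fell (limma adjusted p = 0.0242). Of the probes with 1 gene, 1.10% had a lower mean. With the ratio turned, HTB2 would have the highest mean of the measured histones and 1.10% would lie above it. In order of the mean, the next H2B genes were AT3G09480, with -0.228 and -0.190, and AT2G37470, with -0.202 and -0.179. Both fell (limma adjusted p = 0.0351 and 0.0334), and their ranges over the plants overlapped, so their order is not settled. HTB1 (AT1G07790) had -0.157 and -0.128 and fell (limma adjusted p = 0.0434).

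The last 3 H2B genes did not pass. HTB4 (AT5G59910) had -0.111 in plant 36 and -0.072 in plant 44 (limma adjusted p = 0.0805). HTB11 (AT3G46030) had -0.084 and -0.058 (limma adjusted p = 0.0921), a range that overlapped that of HTB4. AT2G28720 was the one replication-linked gene that was not below 0, with 0.133 in plant 36 and exactly 0.000 in plant 44 (limma adjusted p = 0.357). On that array 394 of all probes were listed at exactly 0, and what such a value stands for is not stated by the labels. The H2B median was -0.14, and -0.17 without AT2G28720. HTB4 and HTB11 lay nearer to 0 than HTB2 in both plants. Copies of the H2B, H4 and H3 genes are close in sequence, and the probe sequences were not used here, so how far a probe reads its gene's copies was not tested.

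Linker histone H1, which compacts the fibre between nucleosomes, did not share the low values of the replication-linked core histones. AT1G06760 lay at 0.070 in plant 36 and 0.130 in plant 44 (limma adjusted p = 0.099). AT2G30620 lay at -0.045 and 0.052, on both sides of 0 (limma adjusted p = 0.954). HIS1-3 (AT2G18050), a smaller H1 variant known for its induction by drought, lay at 0.038 and 0.230 (limma adjusted p = 0.239). All 3 H1 genes were higher in plant 44 than in plant 36, and the H1 median was 0.038 in plant 36 and 0.13 in plant 44. The difference between plants in HIS1-3, 0.192, was larger than that of 96.7% of probes with 1 gene, but with 1 array for each plant it has no test.

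The 2 plants were close for most core histones. The 12 replication-linked genes differed between plants by a median of 0.032 in absolute log ratio, with 0.036 over probes with 1 gene. Of the 12, 9 were higher in plant 44 than in plant 36, as were 4581 of 9335 probes with 1 gene. The widest differences among the 12 were those of AT2G28720, at -0.133, and AT5G59690, at -0.122, given as plant 44 minus plant 36. These 2 genes were the ones that were lower in plant 44, apart from AT1G07820, with a difference of -0.013.

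**Figure D4:**
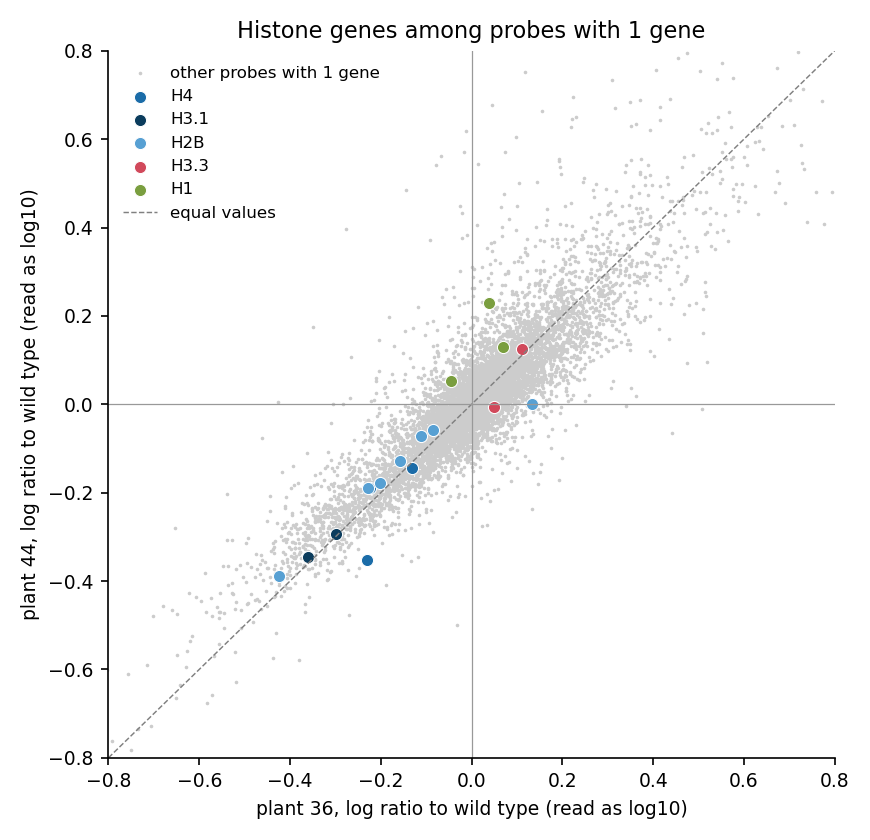
Log ratio to wild type in plant 44 (vertical axis) against plant 36 (horizontal axis), both read as log10, for probes with 1 gene in grey and the histone genes in colour. The dashed line marks equal values, and 52 probes beyond 0.8 on either axis are not drawn. Most replication-linked genes lie along the line in the lower left, from HTB11 at -0.084 and -0.058 to HTB2 at -0.424 and -0.389.

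The genes that copy DNA and drive the cell cycle were set beside the histones, from lists of which few genes were measured. Of 25 listed genes of DNA replication and its E2F regulators, 3 were measured and all 3 fell, with a median of -0.47, beside 12.4% of all probes with 1 gene. In the ordinary test without a prior and at an adjusted p of 0.01 in limma, 0 of the 3 fell, and no probe on the arrays passed either. At an unadjusted p under 0.05 stood 2 of the 3 in the ordinary test and 3 in limma. Over all 22575 probes, 4329 and 9718 did so. TOPII (AT3G23890), a topoisomerase that untangles copied DNA, had -0.536 in plant 36 and -0.409 in plant 44 (limma adjusted p = 0.0359). PRL (AT4G02060), the MCM7 subunit of the replicative helicase, had -0.492 and -0.450 (limma adjusted p = 0.0231). ICU2 (AT5G67100), the catalytic subunit of DNA polymerase alpha, had -0.279 and -0.268 (limma adjusted p = 0.0268). The first 2 of these lay below every measured histone in both plants, and ICU2 lay close to AT5G10400. The low values of these genes had been seen in earlier results of these data, so the list is no independent evidence of its direction.

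Of 27 listed genes of mitosis and cell cycle control, 4 were measured, of which 1 fell, 0 rose and 3 did not pass, with a median of -0.003. Among all probes with 1 gene 12.4% fell and 9.99% rose, so these counts of 4 genes say little by themselves. AUR2 (AT2G25880), an Aurora kinase that phosphorylates histone H3 in mitosis, had -0.165 and -0.154 and fell (limma adjusted p = 0.0351). The other 3 are named outside the rule for named genes, after their values were seen. AUR1 (AT4G32830), a close relative of AUR2, lay at -0.071 and -0.072, AUR3 (AT2G45490), a centromeric Aurora kinase, at 0.073 and 0.058, and SIM (AT5G04470), an inhibitor of cyclin-dependent kinases that promotes endoreduplication, at 0.164 and 0.058. Of the 4, 2 lay below 0 on both arrays and 2 above, near the 41.0% and 42.2% of probes with 1 gene.

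Of 6 listed H3 histones outside the members, 2 were measured. HTR12 (AT1G01370), the centromeric H3 that marks where the kinetochore forms, had -0.366 in plant 36 and -0.307 in plant 44, a mean of -0.34 ± 0.04, and fell (limma adjusted p = 0.0305). AT1G13370, another H3 gene, lay at -0.023 and -0.042 (limma adjusted p = 0.228) and is named outside the rule. Of 19 listed histone chaperones and H2A.Z deposition factors, 2 were measured and neither passed, as was so for 7246 of the 9335 probes with 1 gene. SGA2 (AT1G66740), the H3-H4 chaperone ASF1A, lay at -0.029 and -0.064 (limma adjusted p = 0.181), and SWC2 (AT2G36740), of the SWR1 complex that places H2A.Z, at 0.006 and -0.011 (limma adjusted p = 0.914). None of 24 listed histone-modifying enzymes and none of 7 HMG chromatin proteins had a probe with 1 gene.

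**Figure D5:**
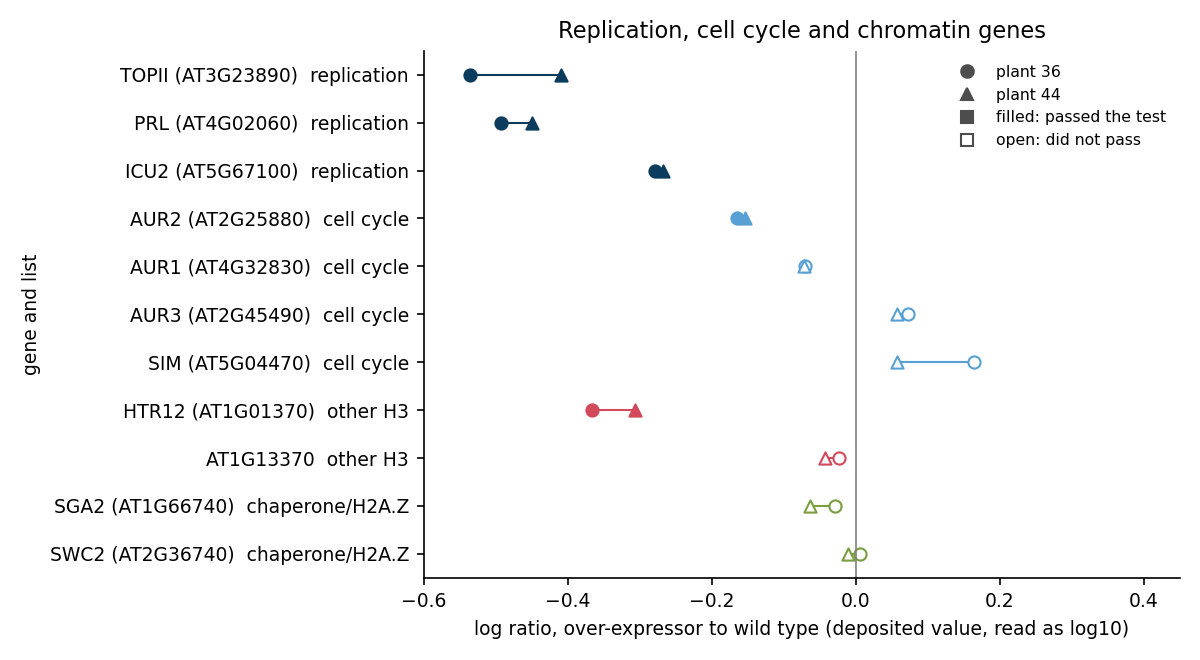
Log ratio of over-expressor to wild type (horizontal axis, read as log10) of the 11 measured genes of the replication, cell cycle, other H3 and chaperone or H2A.Z deposition lists, with a circle for plant 36 and a triangle for plant 44. Filled symbols passed the test of limma. The 3 replication genes, AUR2 and HTR12 are filled and lie left of 0.

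Markers of other tissues were few. The mesophyll list had 1 measured gene of 8, RCA (AT2G39730), the activase of Rubisco, at -0.220 in plant 36 and -0.082 in plant 44, a pair of values held by 73 probes (limma adjusted p = 0.139). The shoot meristem list had 1 of 6, CLV3 (AT2G27250), the stem cell signal, at -0.021 and 0.007 (limma adjusted p = 0.771). Of 5 root markers 3 were measured and none passed. All 3 were below 0 on both arrays, as were 41.0% of probes with 1 gene. Their means lay between -0.078 for PYK10 and -0.030 for EXPA7. None of 7 xylem markers was measured. The part of a changed mix of cell types in the histone values was not tested.

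By the pair of plant values, the genes outside the members closest to the replication-linked median of -0.213 in plant 36 and -0.184 in plant 44 were AT3G49890, AT1G24310, AT4G30680, MAP1C (AT1G13270), a methionine aminopeptidase, and AT3G02120. Likeness was the Euclidean distance over the 2 plants, between 0.0032 and 0.0061, so it rests on 2 points and says little. Of probes with 1 gene, 8.83% had a mean lower than the replication-linked median, or a higher one with the ratio turned. Values this far from 0 were thus not particular to histones. Some histone genes lay near each other on the chromosomes and others far apart, with 0 to 3283 protein-coding genes between neighbouring members. HTB1 and the H4 gene AT1G07820 had 2 protein-coding genes between them in the TAIR10.1 annotation, and their means were close, at -0.14 each. With 60 such genes between them, AT5G10400 and AT5G10980 had unlike means of -0.30 and 0.022. The H3.1 gene AT5G10400 and the H3.3 gene AT4G40040 each had an unmeasured histone of their own kind as the next protein-coding gene.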

How the data were processed

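The deposited table held 1 log ratio for each of 22575 probes on each of 2 arrays, and no value was missing. For these deposited log10 ratios, the labels name neither background correction nor normalization. They were read as log10 from their range, between -2 and 2, which does not settle the base. Probes were named through the platform's annotation and the TAIR10.1 RefSeq table. Of all probes, 9335 had 1 gene, 40 several and 13200 were not listed, and 9317 of the 9335 matched RefSeq.

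The fit was made probe by probe in limma 3.58.1 (R 4.3.3, intercept, empirical Bayes, two-sided, 1 residual degree of freedom, prior 1.37), without further centring, and checked on simulated data. Histone families were assigned by locus from general knowledge. The members, classes and gene lists were chosen with earlier results of these data known. Every measured member was named, with up to 4 called genes, or the 2 with the largest values, of each list and the 5 genes closest to the replication-linked median. Sequences were not used here, so the planned count of promoter motifs was not run. Scanner intensities were not used here, and 2 arrays limit the precision.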

Additional observations from a re-analysis of the deposited data

How the results depend on the processing

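No measured histone changed the sign of its mean in any of the 8 alternatives of the fit. Centring, centring with scaling, a robust prior, fitting probes with 1 gene and leaving out probes at 0 on both arrays each gave 9 falls in place of 8, by adding AT5G59690, and 1 rise. Calls over all 22575 probes rose too, from 4796 to 6414 with centring, 6680 with scaling and 5449 with the robust prior. They were 6538 of 22326 with probes at 0 left out, and 3229 of 9335 with probes of 1 gene fitted. Leaving out the 462 unnamed probes below -1.2 gave the same 8 and 1. The ordinary test without a prior, and an adjusted p of 0.01 in limma, each gave 0 falls and 0 rises among the 17, and 0 for the replication list (3) and the joined chromatin and cell division lists (5). No probe on the arrays passed in either setting, so these zeros say nothing about histones in particular. At an unadjusted p under 0.05 stood 13 of the 17 in limma and 6 in the ordinary test, beside 9718 and 4329 of all 22575 probes. With a base of 2 the replication-linked median is 1.15-fold lower, not 1.58-fold. Without 1 replicate, no test is left, and the medians were -0.213 to -0.184 for replication-linked genes, -0.224 to -0.189 for H4, -0.33 to -0.319 for H3.1, -0.157 to -0.128 for H2B, 0.0585 to 0.0805 for H3.3 and 0.038 to 0.13 for H1, where the 2 plants differ most. Replication-linked minus H3.3 was -0.294 to -0.243 and H3.1 minus H3.3 -0.41 to -0.378. Chosen after the data were seen, counting the probes of several genes gave -0.23 and -0.29 for these differences, and leaving out AT2G28720 gave an H2B median of -0.1665. Averaging probes of 1 gene, leaving out widely shared pairs of values and moving H2A.W and H2A.X between classes changed nothing, since no measured histone was concerned. No paired analysis was possible because there was 1 group. Limits set by signal over background are unknown here.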
